A study of Mus musculus with 8 samples.

Results

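The miR-302/miR-367 cluster was followed as mouse embryonic stem cells of the line KH2-DGCR8 differentiated in embryoid bodies (EBs). Its members were the miRNAs of the deposited table named mmu-miR-302a, mmu-miR-302b, mmu-miR-302c, mmu-miR-302d or mmu-miR-367, alone or with either arm, and 9 of the 1099 miRNAs listed met this rule. They are both arms of the 4 miR-302 hairpins and miR-367-3p, while miR-367-5p was not analysed here. KH2 is a platform line for transgenes switched on by doxycycline, here one for DGCR8, and all libraries share this genotype. DGCR8 and DROSHA form the Microprocessor, which releases hairpins from primary miRNA transcripts. Small RNA libraries were made with doxycycline (Dox) and without it (no Dox) at days 0, 1, 2 and 4, with 1 library per condition, 8 in all, and the study asked what added DGCR8 does to miRNA production. The sources used here do not give the dose or duration of Dox, the number of clones, or whether libraries came from separate cultures. No library of a line without the transgene was analysed here, so effects of Dox and of DGCR8 cannot be told apart, and small RNA libraries do not measure Dgcr8 messenger RNA.

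A microRNA hairpin gives a 5p and a 3p arm, and the arm loaded into Argonaute pairs with messenger RNAs mainly through its seed, bases 2 to 8. The miR-302/miR-367 cluster is a polycistron of pluripotent cells that is low in naive embryonic stem cells, high in the primed epiblast and shut off as lineages form. Some of its miR-302 3p arms share their seed with miRNAs of the miR-290 cluster, the main miRNAs of naive mouse embryonic stem cells, while miR-367 belongs by seed to the miR-25 and miR-92 family.

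The hairpins lie within 580 bases on the plus strand of chromosome 3, from 127545228 to 127545807 (mm10), in the order miR-302b, miR-302c, miR-302a, miR-302d and miR-367. Between neighbouring hairpins there are 43 to 65 bases. The cluster is inside Larp7 (127536714 to 127553349), which is on the minus strand, and the hairpins overlap 0 of its annotated exons, so they are antisense to its introns. RefSeq sequences (GRCm38.p6) were matched to 8 of the 9 members, all but miR-302a-3p. The 4 matched 3p arms are shown first, since most reads of the cluster came from 3p arms, with the seed in capitals.
miR-302b-3p: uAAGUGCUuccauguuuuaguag
miR-302c-3p: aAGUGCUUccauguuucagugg
miR-302d-3p: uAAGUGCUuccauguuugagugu
miR-367-3p: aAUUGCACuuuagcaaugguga

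miR-302b-3p and miR-302d-3p share their first 17 bases, and miR-302c-3p holds 16 of these in a row but starts 1 base later, so that its bases 2 to 8 read AGUGCUU and not AAGUGCU. Reads cut short of the differing ends cannot be assigned to 1 of them, and the sources used here do not say how such reads were counted. The 5p arms, shown for the comparison of arms, share a seed in miR-302b, miR-302c and miR-302d, and miR-302a-5p has another.
miR-302b-5p: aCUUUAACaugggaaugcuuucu
miR-302c-5p: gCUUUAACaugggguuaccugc
miR-302a-5p: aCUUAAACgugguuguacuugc
miR-302d-5p: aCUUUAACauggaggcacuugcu

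The miR-302b hairpin is given whole, with both mature arms in capitals, to show how they face each other across the loop.
Mir302b: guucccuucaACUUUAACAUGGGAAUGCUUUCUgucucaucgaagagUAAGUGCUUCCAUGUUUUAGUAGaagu

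Values are the deposited scores, read as RPM (miRNA reads scaled to one common library total). The implied totals, the smallest that fit the values, ran from 362483 to 541342 miRNA reads per library. By these totals 3 reads stand for 5.54 to 8.28 RPM, and values near or under that level are imprecise. For some libraries larger totals, up to 999975 in the range searched, fit as well, so read counts and counting intervals depend on this choice. In the check of the labelled cell type, 14 of 15 listed arms of the miR-290 cluster had a mean of at least 10 RPM (miR-290b-5p was at 0 throughout), and the list summed to 404813 RPM with Dox and 460852 without Dox at day 0, and to 228907 RPM with Dox and 162740 without Dox at day 4. Marker lists of other cell types were smaller: the 12 fibroblast miRNAs summed to 14040 to 58007 RPM, the 7 neural ones to 3382 to 7936, the 8 of blood and endothelium to 1170 to 2110, the 5 of endoderm to 282 to 985 and the 3 of muscle to 16 to 160, with none of these miRNAs at 0 in every library.

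The cluster was a small part of the miRNA pool in every library, and its share was by far the highest at day 4 without Dox. With Dox its 9 members held 0.0328% of reads at day 0 (95% interval 0.0272 to 0.0392), 0.0742% at day 1, 0.13% at day 2 and 0.237% at day 4 (0.224 to 0.25). Without Dox they held 0.0419% at day 0 (0.0359 to 0.0487), 0.0845% at day 1, 0.234% at day 2 and 3.58% at day 4 (3.52 to 3.64). Each treatment thus stood higher at every later day, and the libraries with and without Dox came apart mainly between days 2 and 4. From day 2 to day 4 the sum stood 1.82-fold higher with Dox (1.65 to 2) and 15.3-fold higher without Dox (14.3 to 16.3). These exact intervals describe counting error alone and take each read as independent. The sources used here do not say whether copies made by PCR were counted as separate reads.

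**Figure D1:**
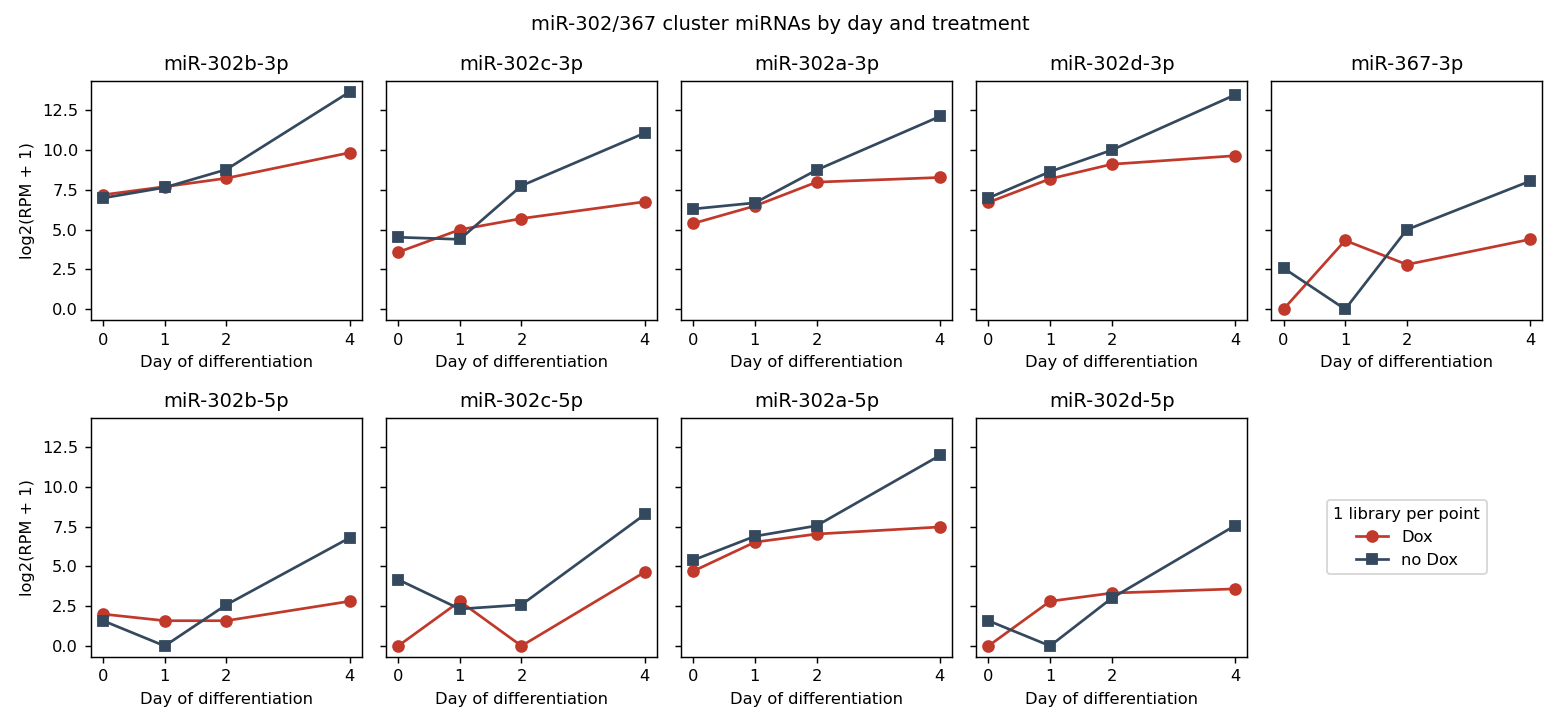
Level of each cluster miRNA, as log2(RPM + 1), against day of EB differentiation, with circles for Dox and squares for no Dox and 1 library per point. The lines run close together up to day 1 for miR-302b-3p and miR-302d-3p. For miR-302a-3p and miR-302a-5p they are closer at day 1 than at day 0. In all 9 panels the day 4 point with Dox lies far below the one without Dox. For mmu-miR-302b-3p it is at 914 with Dox against 12939 RPM without Dox.

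miR-302b-3p and miR-302d-3p, which share the AAGUGCU seed, were the most abundant members. miR-302b-3p had 53 reads with Dox and 52 reads without Dox at day 0, a ratio of 1.15 (0.769 to 1.72) once scaled to the library totals. At days 1, 2 and 4 it stood at 207, 300 and 914 RPM with Dox, against 200, 439 and 12939 RPM without Dox. The day 4 library without Dox was thus far above the other 7. miR-302d-3p had 38 and 151 reads with Dox at days 0 and 1, against 52 and 180 reads without Dox. At days 2 and 4 it stood at 553 and 800 RPM with Dox, against 1025 and 11363 RPM without Dox. Both were within 1.37-fold between treatments up to day 1, and miR-302d-3p was already lower with Dox at day 1, with a counting interval of the ratio from 0.583 to 0.91.

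miR-302a-3p and miR-302c-3p followed at lower levels. miR-302a-3p had 41, 89, 253 and 310 RPM with Dox at the 4 days, against 78, 102, 429 and 4444 RPM without Dox. miR-302c-3p had 11, 31, 51 and 107 RPM with Dox, against 22, 20, 216 and 2155 RPM without Dox. miR-302c-3p was the 3p arm of a miR-302 hairpin with the widest gap at day 2, where it was lower with Dox by 4.23-fold (2.67 to 6.94), and its intervals at days 0 and 1 included 1. miR-367-3p, whose hairpin is the last of the cluster, was the rarest 3p arm, with 0, 19, 6 and 20 RPM with Dox against 5, 0, 31 and 265 RPM without Dox. Its values before day 4 rested on at most 13 reads. At day 1 it had 10 reads with Dox and 0 reads without Dox. Against the floor of 3 reads this is 2.9-fold higher with Dox, counting error aside.

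Of the 5p arms, miR-302a-5p reached the level of a main arm. It had 25, 91, 130 and 177 RPM with Dox, against 41, 118, 187 and 4019 RPM without Dox. The other 5p arms stood at or under 24 RPM in every library except day 4 without Dox, where miR-302c-5p was at 306, miR-302d-5p at 188 and miR-302b-5p at 110 RPM. With Dox at day 4 these 3 were at 24, 11 and 6 RPM.

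The order of levels at day 4 was the same with and without Dox. It ran miR-302b-3p, miR-302d-3p, miR-302a-3p, miR-302a-5p, miR-302c-3p, miR-302c-5p, miR-367-3p, miR-302d-5p and miR-302b-5p. miR-302b-3p exceeded miR-302d-3p 1.14-fold in both libraries (1 to 1.3 with Dox and 1.09 to 1.19 without Dox). miR-302c-5p and miR-367-3p could not be ordered by their reads, with ratios of 1.18 (0.489 to 2.91) with Dox and 1.16 (0.872 to 1.54) without Dox, and with Dox neither could the neighbours after them.

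Whether members rose during differentiation was tested as day 4 against day 0 over both treatments, with limma on log2(RPM + 1). Higher at day 4 passed for 5 of 9 members, against 21.9% of the 839 miRNAs tested, and the median log2 change was 4.68 for the members and 0.56 for all miRNAs. With median-of-ratios scaling, which takes the median of all miRNAs to 0.01, the members' median was 4.09 and 2 of 9 members passed, miR-302c-5p and miR-302d-5p. A pseudocount of 0.5 also left 2, and a pseudocount of 5 or limma-voom on the implied reads left 3. In the main fit the members called higher were miR-302d-5p by 4.78 (SE 1.02, limma adjusted p = 3.75e-05) and miR-302c-5p by 4.37 (SE 0.93, adjusted p = 3.11e-05). Also called were miR-302a-3p by 4.35 (SE 0.96, adjusted p = 0.0318), miR-302b-5p by 3.01 (SE 1.10, adjusted p = 0.0269) and miR-302c-3p by 4.86 (SE 1.22, adjusted p = 0.0477). The folds of the first pair, and of miR-302b-5p at 3 or fewer reads in most libraries, depend on the pseudocount. The other 4 had log2 changes of 4.66 to 4.93 and adjusted p from 0.0939 to 0.131. Which members were called depended on limma's robust option. Without it 6 of 9 were called, all but miR-302b-5p (limma adjusted p = 0.159), miR-302d-5p (0.0602) and miR-367-3p (0.0927). From its own residuals the SE of miR-302d-5p would be 2.03, that of miR-302b-5p 1.70 and that of miR-302c-5p 1.47.

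The tests average over treatments that differed at day 4. Without the day 4 library with Dox 9 of 9 passed, and without the one lacking Dox 7 of 9, the exceptions being miR-302b-5p (log2 change 0.85, adjusted p = 0.771) and miR-302d-5p (2.54, adjusted p = 0.209). Without the day 0 library with Dox 3 passed, without that lacking Dox 2, and without either day 2 library 2. At day 2 against day 0 limma called 0 members, against 17.3% of miRNAs in either direction, with a median log2 change of 2.37 for the members and 0.48 for all. At day 2 limma-voom also called 0, and 1 of 9 members, miR-302d-5p, passed 0.05 unadjusted. At day 1 limma called 0 members, against 8.1% of miRNAs in either direction, limma-voom 0, and 0 had an unadjusted p under 0.05, with medians of 0.64 and 0.37.

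Within each treatment, where 1 library per day allows no test, day 4 was also set against day 0. From day 0 to day 4 with Dox miR-302b-3p stood 6.31-fold higher (4.75 to 8.55), miR-302a-3p 7.57-fold (4.46 to 13.8), miR-302d-3p 7.7-fold (5.52 to 11) and miR-302c-3p 9.8-fold (3.63 to 37.2). Without Dox the same miRNAs stood 103-fold (78.1 to 138), 57.3-fold (40.4 to 84.1), 90.2-fold (68.6 to 121) and 98.8-fold (51.8 to 217) higher. Set on value + 1, 3 of 9 members with Dox and 9 of 9 without Dox were at least 10-fold above day 0, against 3.21% and 6.81% of miRNAs averaging 10 RPM or more over the 8 libraries. miR-302b-5p, miR-302c-5p and miR-302d-5p reach that average only through the day 4 library without Dox, so the filter itself favours a high day 4 value for them. With the average taken over days 0 to 2, a filter chosen after seeing the data, 6 members passed it. Of these, 1 of 6 with Dox and 6 of 6 without Dox were at least 10-fold above day 0, against 1.68% and 4.63% of miRNAs. The 3 with Dox, miR-302c-5p, miR-302d-5p and miR-367-3p, each had 0 reads in the day 0 library with Dox.

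Dox was then set against no Dox within each day, where 1 library per treatment allows no test. At day 4 all 9 members were at least 10-fold lower with Dox on value + 1, against 2.4% of miRNAs averaging 10 RPM or more, that is 12 miRNAs, of which the others were miR-210-3p, miR-152-5p and miR-653-5p. The 3 member arms that pass this filter only through the day 4 library without Dox are counted here too. So is miR-653-5p, which passes it in the same way, with 77 RPM in that library and at most 12 RPM in any other. With the average taken over days 0 to 2, 6 of 6 members that passed were at least 10-fold lower, against 1.68% of miRNAs. At least 2-fold lower were 3 of 9 members at day 0 (9.62% of these miRNAs), 0 at day 1 (4.41%), 4 at day 2 (9.42%) and 9 at day 4 (11.8%). The counts of days 0 and 2 include arms with fewer than 3 reads in both libraries.

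The counting intervals of the day 4 ratio overlapped for most members. The ratio of Dox to no Dox was 0.0707 for miR-302b-3p (0.0643 to 0.0775), 0.0704 for miR-302d-3p (0.0636 to 0.0777), 0.0698 for miR-302a-3p (0.0592 to 0.0819) and 0.0767 for miR-367-3p (0.0371 to 0.144). It was lower for miR-302a-5p, at 0.0441 (0.0355 to 0.0543), and for miR-302c-3p, at 0.0497 (0.0374 to 0.065), whose counting intervals lie below or only just reach those of the abundant arms. The summed cluster was 15.1-fold lower with Dox at day 4 (14.3 to 16) and 1.8-fold lower at day 2 (1.62 to 1.99). At day 1 its ratio of 0.878 had an interval of 0.76 to 1.01, and at day 0 the ratio of 0.782 had one of 0.614 to 0.993.

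**Figure D2:**
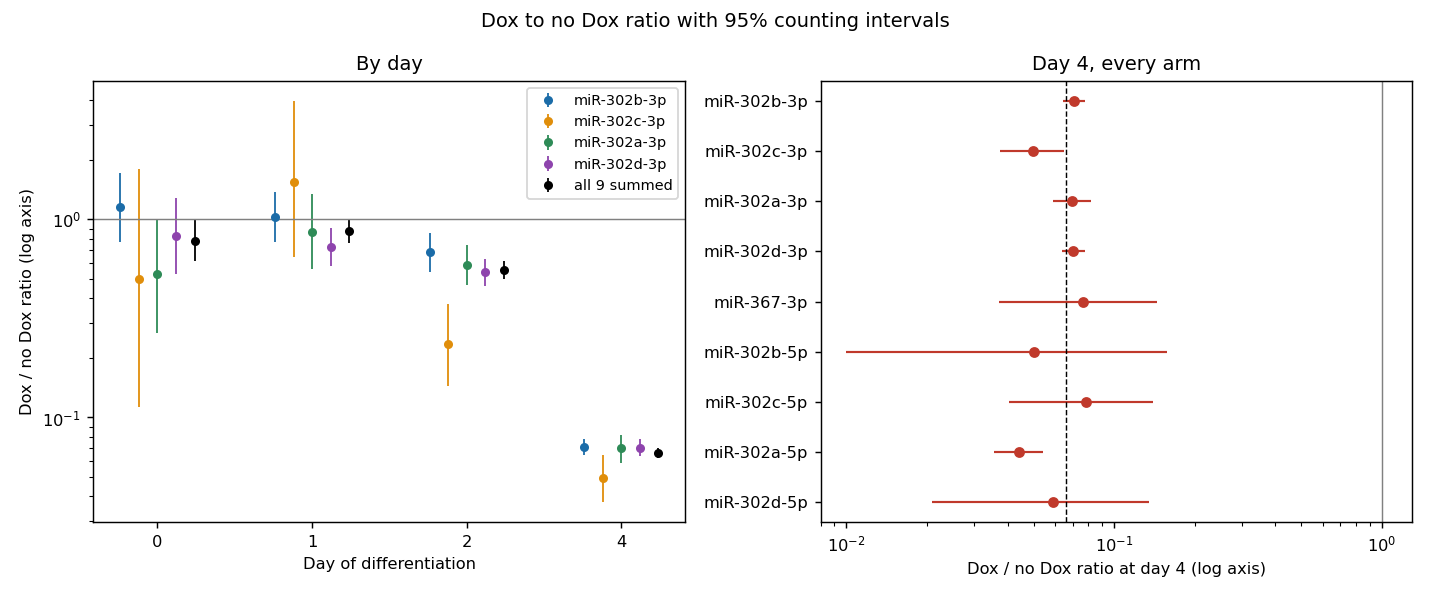
Left, the Dox to no Dox ratio by day on a log axis for the 3p arms of the miR-302 hairpins and for all 9 members summed. Right, the day 4 ratio of each arm, with a dashed line at the summed cluster; bars are 95% counting intervals and each ratio rests on 1 library per treatment. The summed ratio lies at 0.782, 0.878, 0.556 and 0.0662 at days 0, 1, 2 and 4, and all 9 day 4 intervals lie below 1.

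Other cell type lists also differed between the day 4 libraries. The miR-290 cluster summed to 228907 RPM with Dox against 162740 RPM without Dox. The fibroblast list summed to 58007 with Dox against 40236 without Dox, the neural list to 5752 with Dox against 7936 without Dox, and the endoderm list to 639 with Dox against 483 without Dox. The blood and endothelium list summed to 1735 with Dox against 1170 without Dox, and the muscle list to 160 in both. Their part in the cluster's difference was not tested, and in bulk RNA fewer cells of a type and less RNA per cell cannot be told apart. With the miR-290 cluster left out of the library totals, the summed ratio at day 4 was 0.0719.

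Over all days, Dox against no Dox was called for 1 of 9 members, miR-302c-5p, lower with Dox, against 0.596% of the 839 miRNAs called lower. It had 0, 6, 0 and 24 RPM with Dox at days 0, 1, 2 and 4, against 17, 4, 5 and 306 RPM without Dox, and its day 1 ratio of 1.3, from 3 reads with Dox and 2 without Dox, had an interval of 0.149 to 15.6. Its fitted log2 change of -2.47 (SE 0.66, limma adjusted p = 0.0145) rests on libraries at 0 and depends on the pseudocount. From its own residuals the SE would be 1.04, and the adjusted p was 0.287, 0.471 and 0.247 without the libraries of day 0, day 2 or day 4. The other 8 members had log2 changes of -1.68 to -0.61 and adjusted p from 0.608 to 0.909, and the median was -1.36 for the members and 0.03 for all miRNAs. With limma-voom on the implied reads these 8 had log2 changes of -2.72 to -1.65, and none of them was called. Without the day 1 libraries 3 members were called.

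The test of whether the Dox effect changed with day called 5 of 9 members, each with a fitted slope below 0, against 0.715% of the 839 miRNAs. For miR-302b-3p the log2 of the Dox to no Dox ratio fell each day by 1.04 (SE 0.15, limma adjusted p = 3.39e-09). That of miR-302d-3p fell by 0.92 (SE 0.14, adjusted p = 8.08e-08), that of miR-302a-5p by 1.00 (SE 0.18, adjusted p = 1.47e-05), that of miR-302c-3p by 1.03 (SE 0.21, adjusted p = 2.76e-04) and that of miR-302a-3p by 0.81 (SE 0.17, adjusted p = 3.20e-04). The other 4 members, all with few reads before day 4, had slopes of -1.27 to -0.21 and adjusted p from 0.314 to 0.898. The ratios themselves did not fall evenly: for miR-302b-3p they were 1.15, 1.03, 0.683 and 0.0707 at days 0, 1, 2 and 4. Those of miR-302c-3p, miR-302a-3p and miR-302a-5p were higher at day 1 than at day 0. Coded as day 4 against the earlier days, 5 members were again called, the same ones, with log2 ratios at day 4 minus earlier days of -3.97 for miR-302a-5p to -3.22 for miR-302a-3p. From their own residuals the SE of the daily slope would be larger for all 5 called members. It would be 0.26 for miR-302b-3p, 0.24 for miR-302d-3p and 0.42 for miR-302a-5p. For miR-302c-3p it would be 0.45 and for miR-302a-3p 0.36. Coded as days 2 and 4 against days 0 and 1, 0 members were called. Without limma's robust option 0 members were called, and 0 without the day 2 or the day 4 libraries.

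The make-up of the cluster moved more between days than between treatments at day 4. Of the summed 3p reads at day 4, miR-302b-3p held 42.5% with Dox (39.6 to 45.4) and 41.5% without Dox (40.6 to 42.4). miR-302d-3p held 37.2% with Dox (34.4 to 40) and 36.5% without Dox (35.6 to 37.4). miR-302a-3p held 14.4% with Dox (12.5 to 16.6) and 14.3% without Dox (13.6 to 14.9). The make-up was thus close in both libraries for these arms, and miR-367-3p held 0.944% with Dox (0.472 to 1.68) and 0.85% without Dox (0.689 to 1.04). Only miR-302c-3p had intervals that did not meet, at 4.98% with Dox (3.8 to 6.39) and 6.91% without Dox (6.45 to 7.4). At day 2 miR-302b-3p had held 25.8% with Dox (22.2 to 29.7) and 20.5% without Dox (17.9 to 23.3), and miR-302d-3p led with 47.5% with Dox and 47.9% without Dox. At that day miR-302c-3p differed more between treatments, at 4.39% with Dox (2.83 to 6.46) and 10.1% without Dox (8.2 to 12.2).

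**Figure D3:**
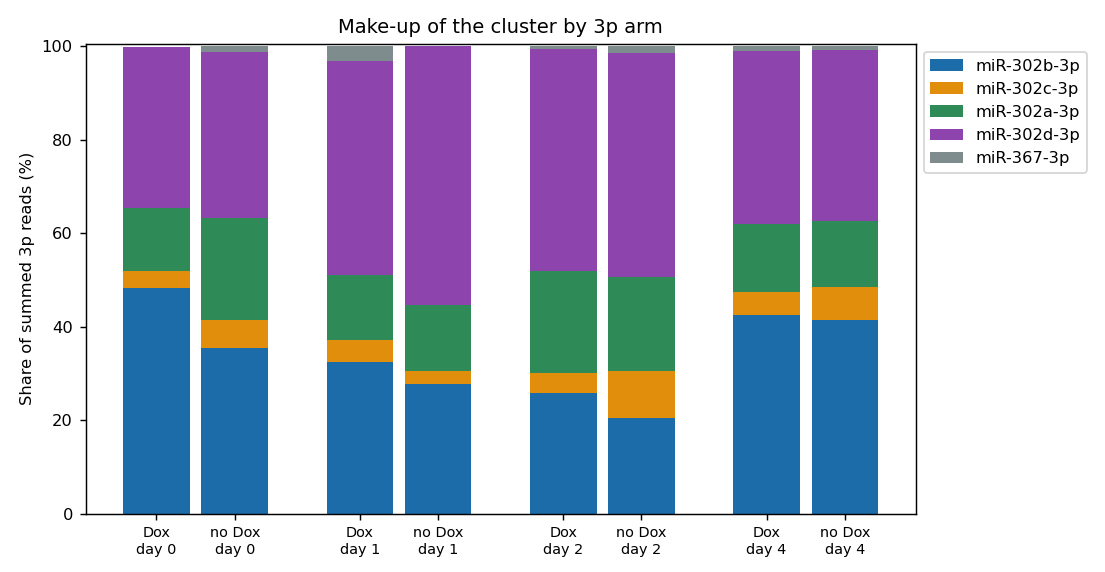
Share of summed 3p reads of the cluster held by each 3p arm, in percent, in each of the 8 libraries, with Dox left of no Dox at each day. The day 4 bars are close to each other, with miR-302b-3p at 42.5% with Dox and 41.5% without Dox, and at day 2 miR-302d-3p takes the largest share, at 47.5% with Dox and 47.9% without Dox.

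Arm ratios, which do not depend on library scaling, differed between hairpins at day 4. At day 4 the 3p arm exceeded the 5p arm 165-fold with Dox (56.1 to 803) and 117-fold without Dox (86 to 164) for miR-302b. For miR-302d it did so 72.2-fold with Dox (32.9 to 198) and 60.6-fold without Dox (47.7 to 78.2). For miR-302c the ratio was 4.46 with Dox (2.42 to 8.88) and 7.04 without Dox (5.76 to 8.66). In miR-302a, whose 5p arm has a seed of its own, the arms were nearly balanced, at 1.75 with Dox (1.35 to 2.27) and 1.11 without Dox (1.03 to 1.19).

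At day 4 the arm ratio of miR-302a was 1.58 times as high with Dox as without (1.21 to 2.08). At days 0, 1 and 2 this quotient was 0.887, 1.13 and 0.852, with intervals that each included 1. For the other 3 hairpins the day 4 intervals of the quotient included 1. The miR-302a ratio also varied between days, with 1.67, 0.979, 1.95 and 1.75 with Dox and 1.88, 0.868, 2.29 and 1.11 without Dox at days 0, 1, 2 and 4. That of miR-302c without Dox ran from 1.29 (0.426 to 4.06) at day 0 to 45.5 (12.2 to 381) at day 2. These rest on 7 and 2 reads of its 5p arm. With 1 library per treatment and day, the day 4 difference of miR-302a was not tested.

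**Figure D4:**
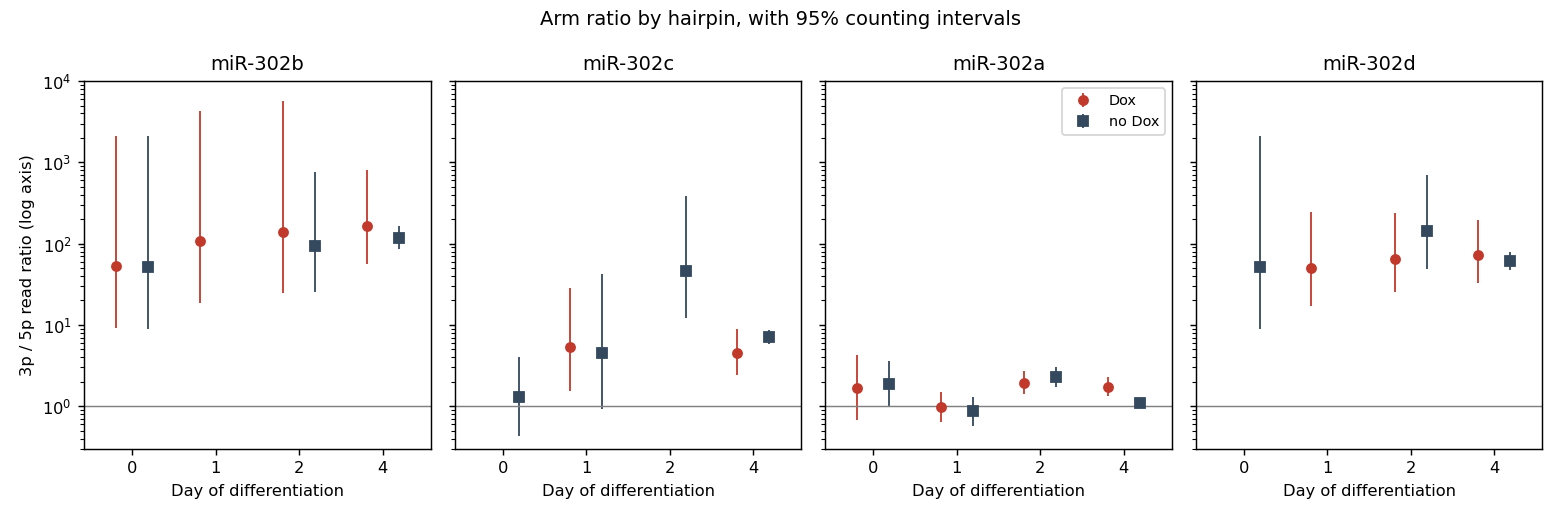
Ratio of 3p to 5p reads, on a log axis, for each miR-302 hairpin by day, with circles for Dox, squares for no Dox and bars for 95% counting intervals; libraries with an arm at 0 reads are not drawn. miR-302b and miR-302d lie above 50, and miR-302a stays between 0.868 and 2.29. miR-302c runs from 1.29 at day 0 to 45.5 at day 2, both without Dox.

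The seed family places these levels in context. Among the listed miRNAs matched to a RefSeq sequence, the AAGUGCU seed was carried by miR-302b-3p, miR-302d-3p and, from the miR-290 cluster, by 3 miRNAs shown here with the seed in capitals (RefSeq, GRCm38.p6).
miR-291a-3p: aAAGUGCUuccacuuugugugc
miR-294-3p: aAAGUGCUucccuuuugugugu
miR-295-3p: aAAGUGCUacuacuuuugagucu

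All 4 miR-302 3p arms together, including miR-302c-3p with its shifted start and miR-302a-3p, whose seed was not read here, gave 0.198%, 0.492%, 0.861% and 2.26% of the reads of both groups with Dox at days 0, 1, 2 and 4. Without Dox they gave 0.205%, 0.572%, 1.48% and 35.2% (34.7 to 35.7 at day 4). At day 4 the 3 miR-290 cluster arms summed to 92001 RPM with Dox and 56891 RPM without Dox, and the miR-302 3p arms to 2131 RPM with Dox and 30901 RPM without Dox. The sum of both groups at day 4 was 94132 RPM with Dox and 87792 RPM without Dox, so these totals lay close together while their make-up did not. Both were below the day 0 sums of 151598 RPM with Dox and 171072 RPM without Dox.

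**Figure D5:**
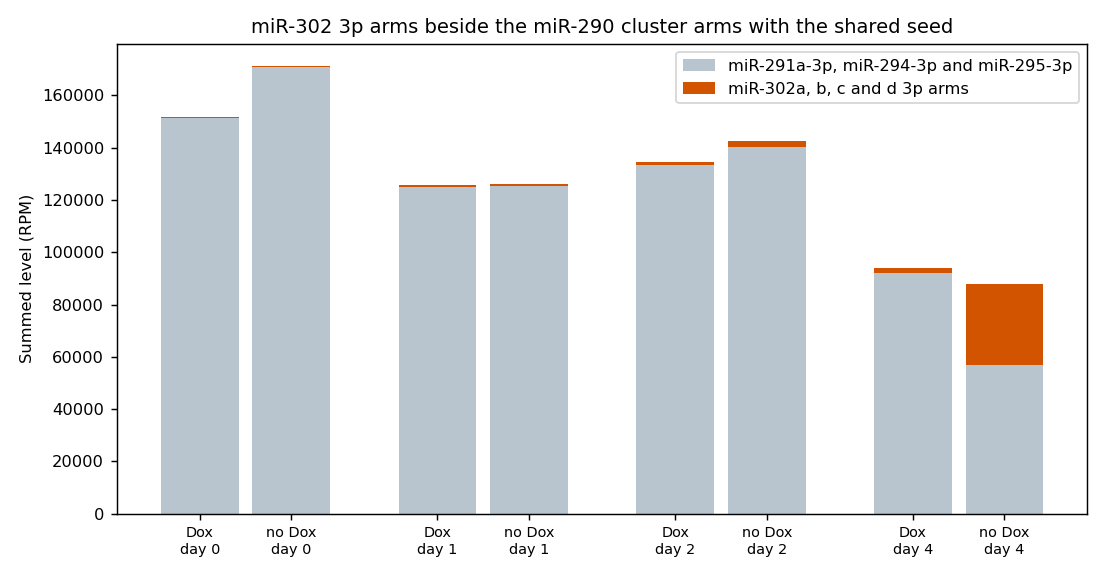
Summed level, in RPM, of miR-291a-3p, miR-294-3p and miR-295-3p (grey) and of the miR-302 3p arms (orange) in each library, with Dox left of no Dox at each day. The miR-302 part is a thin band in 7 libraries and 35.2% of the bar at day 4 without Dox.

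miR-367-3p was by contrast a trace of its seed family. The AUUGCAC seed was carried by 6 listed miRNAs, among them miR-92a-3p, at 17654 RPM with Dox and 25204 RPM without Dox at day 4, and miR-25-3p, at 9434 RPM with Dox and 11830 RPM without Dox. At day 4 miR-367-3p gave 0.0554% of this family's reads with Dox (0.0277 to 0.0991) and 0.528% without Dox (0.428 to 0.644). At day 0 with Dox it had 0 reads, and 3 reads, the floor for a count of 0, would be a share of 0.0199%, while the exact interval reaches 0.0245%.

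Among the 490 other miRNAs averaging 10 RPM or more, miR-1197-3p had the pattern most like that of the summed cluster, with Pearson's r of 0.983 for log2(RPM + 1) over the 8 libraries. It stood at 68, 91, 100 and 140 RPM with Dox and 56, 80, 171 and 463 RPM without Dox at days 0, 1, 2 and 4, so its day 4 ratio of 0.303 was less extreme than any member's. Next came miR-380-5p (r = 0.940), miR-653-5p (0.926), miR-679-5p (0.919), miR-375-3p (0.916) and miR-337-3p (0.914). The day 4 ratio of miR-653-5p, 0.0717, was close to that of miR-302b-3p, 0.0707. It came from 6 RPM with Dox and 77 RPM without Dox, and only the latter library brings miR-653-5p to the average of 10 RPM. The libraries share their days, and the list rests on day 4: without its libraries 0 of the 6 names remained among the closest 6, and by rank correlation 1 did. The members' own r with their sum, which they enter, ran from 0.768 for miR-302c-5p to 0.993 for miR-302d-3p.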

How the data were processed

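The authors deposited 1 table of mature miRNAs. Its scores are whole numbers with library totals of 999965 to 1000047, read here as RPM rounded by the authors. The submitters' processing notes name Bowtie and mm10, with no version or role, while the miRNA annotation and counting tool were not given in the sources used here. A total row without values was left out (1 row). Columns were matched to samples by their labels' descriptions. The table has no coordinates, which come from RefSeq (GRCm38.p6, the assembly of mm10) and GENCODE.

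For each library the smallest read total was found for which every value is a whole number of reads within 0.5 RPM, the reads summing to the total. It matched 100% of values above 0. Between 1 and 207 totals fit a library, the largest of them 999975 within the range searched. Counting intervals (95%, exact conditional binomial; exact Clopper-Pearson for shares) use these reads.

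Tests used limma 3.58.1 (R 4.3.3) on log2(RPM + 1) for the 839 miRNAs that reached 1 RPM in 2 or more libraries, among them all 9 members. Models held treatment and day as a factor (3 residual degrees of freedom), with the product of treatment and day number added for the change with day (2 left). The prior variance was trended and robust, and p-values were adjusted by Benjamini-Hochberg over all 839, with calls at 0.05. Counts of raw reads had been one planned option, and the unit required the form for normalized values. With 1 library per condition, the residual spread of a miRNA is how its Dox effect varies between days, with any technical differences included. In the test of change with day it is the departure from a straight line. The SEs behind the p-values were set mostly by the trended prior shared by all miRNAs. A miRNA's own residuals entered them for 39 of the 839 miRNAs in the Dox and day tests. In the test of change with day they did so for 3. A Dox effect that changes with day thus widens the SE of the Dox and day tests only where own residuals enter. In day 4 against day 0 the SE of miR-302b-3p was 1.34, the same as from its own residuals. That of miR-302d-5p was 1.02, against 2.03 from its own residuals. Fold changes on this scale understate changes of low miRNAs. Scripts were tested on simulated data. Python 3.11.15 with scipy 1.17.1 gave the intervals.

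All 9 members were named, with miRNAs of the same 3p seed and the 6 others whose log2(RPM + 1) correlated best with the summed cluster. Members, lists and tests were chosen with earlier results of these data known.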

Additional observations from a re-analysis of the deposited data

Results flagged for a closer look

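For 5 members the effect of Dox differed between time points by the limma test of treatment by day. On a fitted straight line, the Dox to no Dox log2 ratio fell by 1.04 a day for miR-302b-3p. It fell by 1.03 for miR-302c-3p. It fell by 1.00 for miR-302a-5p. It fell by 0.92 for miR-302d-3p and fell by 0.81 for miR-302a-3p. The ratio was lower at day 4 than at each earlier day for all 5, and a straight line over days is a rough summary of values that differ mainly at day 4. Each ratio rests on 1 library per treatment and day. The calls are fragile: 0 members were called without limma's robust option, without the day 2 or the day 4 libraries, or with days 2 and 4 set against days 0 and 1. Without day 4 the slopes of miR-302a-3p and miR-302a-5p were above 0, at 0.08 and 0.09.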

How the results depend on the processing

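Dox against no Dox over all days called 1 member, and 0 without the robust option, 0 without a replicate block (no day term) and 0 with day as a linear term. Leaving out the libraries of 1 day gave 0 to 3. With 1 day left out, the uncalled log2 change of miR-302b-5p ran from -1.52 to 0.33 and that of miR-302d-5p from -1.75 to 0.51, both above 0 without day 4. The test of change with day called 5 members, 0 without the robust option, 0 for days 2 and 4 against days 0 and 1, and 0 to 7 with 1 day left out (0 without day 2 or day 4). With 1 day left out, slopes ran from -1.26 to 0.08 for miR-302a-3p, -1.46 to 0.09 for miR-302a-5p, -2.39 to 0.20 for miR-367-3p, -2.25 to 0.95 for miR-302d-5p and -1.25 to 0.79 for miR-302c-5p. All 5 were above 0 without day 4, and miR-302c-5p also, at 0.14, without day 1. These fits hold fewer libraries, and the cause was otherwise not tested.

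Day 4 against day 0 called 5 members, 2 with a pseudocount of 0.5, 3 with 5, 2 with median-of-ratios scaling and 3 with limma-voom on implied reads. Without the robust option it called 6, with miR-302b-5p and miR-302d-5p no longer among them. The scaling took the median of all miRNAs to 0.01 from 0.56 and that of the members to 4.09 from 4.68. Leaving out 1 library gave 2 to 9 for day 4, 0 to 6 for day 2 (6 without either day 4 library, 3 and 2 without the day 1 library lacking or with Dox) and 0 to 2 for day 1 (2 without the day 1 library lacking Dox or without either day 4 library). No call in day 4 against day 0 reversed.

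With miRNAs kept by their average over days 0 to 2, chosen after seeing the data, 1 member with Dox was at least 10-fold above day 0 at day 4, against 3 with all libraries. The summed day 4 ratio was 0.0719 outside the miR-290 cluster, and the ratios of the other days stayed within their counting intervals. The cluster's share scaled by the median of ratios was 0.0406% with Dox and 0.0546% without Dox at day 0, 0.208% without Dox at day 2, and 0.197% with Dox and 3.03% without Dox at day 4. Outside the miR-290 cluster it was 0.0551% and 0.0778% at day 0, 0.122% and 0.144% at day 1, 0.208% and 0.367% at day 2, and 0.307% and 4.27% at day 4, with Dox and without Dox in turn. With both arms counted, miR-302b held 38.8% and 36.5%, miR-302a 20.6% and 23.6%, and miR-302d 34.2% and 32.3% of the cluster at day 4 with and without Dox. Of the 6 miRNAs with the closest pattern, 1 was shared by Spearman's rho, 3 with a mean of at least 100 RPM and 0 without the day 4 libraries. Depth limits the 5p arms other than miR-302a-5p, and miR-367-3p before day 4.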
